A study of Schmidtea mediterranea with 48 samples.

Results

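Tails of the planarian *Schmidtea mediterranea* were sequenced after 4 weeks of *nr4A* RNAi or control RNAi. The 6 libraries described here were taken by their sample labels from the 48 of the whole series, which also covers heads and 3 other time points. The 3 *nr4A(RNAi)* libraries came from animals of the asexual strain CIW4 fed liver mixed with double-stranded RNA (dsRNA) against *nr4A*, with 2 feedings per week. The 3 control libraries came from animals of the same strain and schedule fed dsRNA against *unc-22*, a gene of the nematode *C. elegans*. All animals were uninjured before the tails were cut off, and both groups had eaten dsRNA with their food. Each library pooled the tails of 6 animals and was a separate biological replicate, so that a value is a mean over animals and gives no spread between single worms. The control therefore matched the feeding of dsRNA but not of a planarian sequence, and a single dsRNA against *nr4A* stands for its loss.

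NR4A proteins are nuclear receptors, transcription factors with a DNA-binding domain and a ligand-binding fold, and in vertebrates several of them are induced rapidly by signals and act in muscle and metabolism. In planarians, muscle cells beneath the skin secrete the matrix around the organs and also express position control genes, the genes that tell other cells where along the body they are. The tail tip carries the posterior pole, a small group of muscle cells that expresses Wnt ligands. RNAi by feeding lowers a transcript throughout the worm and leaves some of it behind, and existing tissue is replaced only slowly from dividing stem cells called neoblasts.

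The sequences designed against the animals' transcripts are shown for *nr4A*, the target of the RNAi, and for the named contigs with the largest falls, dd_11601 (*qki*) and dd_9565 (*col21a1*). The first *nr4A* pair was listed for cloning the gene and the second for qPCR, designed to lie outside the dsRNA. Each primer is written 5′ to 3′.
nr4A, cloning, forward: cgcgagtcagtcagccat
nr4A, cloning, reverse: tgccgtggctggatgaag
nr4A, qPCR, forward: gatggtcaattttaaatcaatcaacaa
nr4A, qPCR, reverse: ggtccacagcaatgagttttaagc
dd_11601 (qki), forward: caatctttcacaaatcgtgtcca
dd_11601 (qki), reverse: caacgcagagttcaaacaatgc
dd_9565 (col21a1), forward: tggtgacaaatgaatgctcact
dd_9565 (col21a1), reverse: accaggatcaccttgggga

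Reads were counted on contigs, the assembled transcripts of the dd_Smed_v4 transcriptome, so no genome coordinates apply. A name in parentheses after a contig number is the name used in the study, in most cases that of its best human match, and a contig without one is given by number alone. The *nr4A(RNAi)* libraries held 24411785, 20535277 and 23195761 counts and the control libraries 23692664, 21706132 and 24370872 counts. Levels are given as CPM, that is counts scaled to a common library size after TMM normalization, and always in the order of replicates 1, 2 and 3. Contig lengths were not used, so a level is compared between libraries, and between contigs it says only how many reads a contig drew. The tissue labels were checked with genes of known position. The posterior Wnt gene *wnt11-2* had 42.3 to 53.0 CPM in control tails and 0.0359 to 0.0519 CPM in control heads at 4 weeks, and the anterior gene *ndl-4* had 2.55 to 3.73 CPM in control tails and 125 to 138 CPM in control heads. Replicate 1 of the *nr4A(RNAi)* tails stood somewhat apart. Among 11330 well-counted contigs (mean log2 CPM over 3), 43 were lower and 11 higher in it than in the other replicates by more than 1 (log2), against at most 17 lower and 5 higher in any of the other 5 libraries. Replicate 2 of the *nr4A(RNAi)* tails had the fewest contigs with a count, 22980 against 23796 to 24282 in the other 5 libraries.

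*nr4A* itself, dd_12229, had 12.5, 18.0 and 17.9 CPM in *nr4A(RNAi)* tails, against 20.2, 21.9 and 25.5 CPM in control tails. All 3 *nr4A(RNAi)* libraries lay below all 3 control libraries, with replicate 1 the lowest. Of all contigs tested, 5.8% were separated in this direction. The log2 fold change was −0.48 ± 0.14 (SE), with an adjusted p of 0.391 in edgeR's quasi-likelihood test, so the targeted transcript did not pass the threshold of 0.05. The contig was deposited as 2 rows. The larger held 262, 308 and 360 counts in *nr4A(RNAi)* tails and 425, 433 and 576 in control tails, while the smaller held 37, 66 and 61 counts and 43, 45 and 54 counts, with overlapping groups. The counts do not separate reads from inside and outside the stretch covered by the dsRNA. In the other tail comparisons the change of *nr4A* was −0.69 at week 2, −0.49 at week 3 and −0.63 at week 5, where alone it passed, and it was −0.68 in heads at 4 weeks, where it did not pass (edgeR adjusted p = 0.150).

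Most of the transcriptome did not differ between the groups beyond the replicate spread, and the changes that did were mostly decreases. Of 18684 contigs tested, 58 fell in *nr4A(RNAi)* tails and 18 rose at an adjusted p below 0.05, which is 0.31% and 0.0963% of the contigs tested. The median change over all contigs tested was −0.00 on the log2 scale. The decreases spanned a range of sizes from 0.38 to 5.67 (log2), with a median of 0.86. Of the 58, 24 fell by more than 1, 8 of these by more than 2, and 5 fell by 0.5 or less. The 18 increases lay between 0.51 and 3.49 with a median of 0.85, and 6 of them were above 1. The 58 differed in the reads behind them: 12 had a mean of under 5 CPM in control tails and 10 had at least 100 CPM. Of the 8 that fell by more than 2, all except *qki* and *col21a1* had under 5 CPM in control tails.

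**Figure D1:**
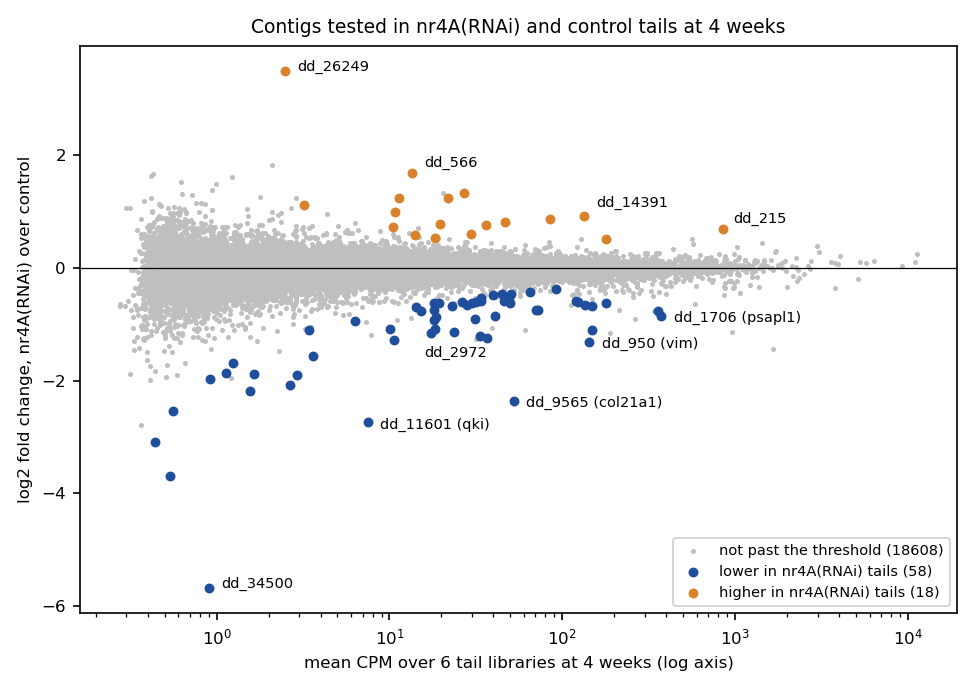
Each point is 1 of the contigs tested in tails at 4 weeks, with its mean CPM over the 6 libraries (log axis) against its log2 fold change, *nr4A(RNAi)* over control. The 58 contigs past the threshold that were lower in *nr4A(RNAi)* tails (blue) reach −5.67, and of the 18 that were higher (orange) only dd_26249 is above 2.

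For each of the 58 contigs that fell, all 3 *nr4A(RNAi)* libraries lay below all 3 control libraries, and for each of the 18 that rose they lay above. Over all contigs tested such a separation occurred in 5.8% below and 5.76% above. The number past the threshold moved with the libraries and the tool: it was 183 without *nr4A(RNAi)* replicate 1 and included all 76, it was between 18 and 45 when any other single library was left out, with the fewest without control replicate 3, and it was 139 with DESeq2. In all, 13 contigs, 11 that fell and 2 that rose, passed under each of the 12 alternative settings that gave a value per contig. They were *qki*, *col21a1*, dd_2972, *mmp19*, *lactb*, *col18a1*, dd_6570, *psapl1*, dd_508, dd_5509 and *alas2* among the contigs that fell, and dd_9259 and dd_14391 among those that rose. dd_34500, dd_16103, dd_23846 and dd_26249 passed under the 11 settings that tested them, and the filter on a mean of 100 counts removed them. In whole tails, fewer cells that express a gene and less of its RNA per cell cannot be told apart.

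The largest fall of any contig that the study names was that of dd_11601 (*qki*), the relative of Quaking, an RNA-binding protein that in vertebrates and flies controls splicing and stability of muscle and glial transcripts. It had 1.80, 1.74 and 2.30 CPM in *nr4A(RNAi)* tails, against 12.2, 13.2 and 13.8 CPM in control tails. The 2 sets were far apart, and the spread within each was small. The log2 fold change was −2.74 ± 0.16 (SE), with an edgeR adjusted p of 1.62e-05. The 3 deposited rows of the contig, its isoforms, fell alike: the first held 18, 17 and 20 counts in *nr4A(RNAi)* tails and 103, 94 and 114 counts in control tails.

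Of the named contigs that fell, 4 match proteins of the extracellular matrix or enzymes that act on it, and they are grouped here after their values had been seen. dd_9565 (*col21a1*), a match to a collagen of the kind that sits on the surface of collagen fibrils, had 11.0, 17.0 and 23.1 CPM in *nr4A(RNAi)* tails, against 87.2, 83.7 and 91.9 CPM in control tails. The change was −2.36 ± 0.19 (SE; edgeR adjusted p = 0.000149), with *nr4A(RNAi)* replicate 1 the lowest, and both deposited rows fell. dd_3902 (*mmp19*), a match to a matrix metalloproteinase, an enzyme that cleaves matrix proteins, had 17.0, 20.3 and 23.1 CPM in *nr4A(RNAi)* tails and 46.8, 45.0 and 48.6 CPM in control tails. Its change was −1.22 ± 0.11 (SE; edgeR adjusted p = 0.000374). dd_9030 (*col18a1*) matches a collagen of basement membranes, the sheets on which epithelia and muscle rest. It had 11.6, 11.6 and 14.2 CPM in *nr4A(RNAi)* tails against 25.1, 22.0 and 24.2 CPM in control tails, a change of −0.93 ± 0.11 (SE; edgeR adjusted p = 0.00365). dd_11681 (*colgalt2*), a match to an enzyme that adds galactose to collagen, had 11.0, 15.4 and 13.2 CPM against 22.2, 26.3 and 23.7 CPM in control tails, with a change of −0.87 ± 0.13 (SE; edgeR adjusted p = 0.0122). The *colgalt2* call was lost without *nr4A(RNAi)* replicate 3 or any 1 control library, with adjusted p up to 0.0880.

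The fibril-forming collagens had smaller changes. All 9 contigs of a list of fibrillar collagens had negative log2 fold changes, between −0.45 for dd_701 (*COL24A1*) and −0.21 for dd_2197 (*COL24A1*), and none passed the threshold. The list median was −0.34, beside a median of −0.00 over all contigs tested, of which 50.2% were negative. Their summed level was 7109, 8476 and 8981 CPM in *nr4A(RNAi)* tails, against 10971, 9847 and 10085 CPM in control tails, with no overlap. Among single contigs tested, 5.8% were separated in this direction. *nr4A(RNAi)* replicate 1, which stood apart among well-counted contigs, had the lowest sum of the 6. Without it the list median was −0.24, with 1 of the 9 past the threshold. The 3 type IV collagens, the network-forming collagens of basement membranes, had changes between −0.12 and 0.04, none past the threshold. Of 12 other matrix contigs, *colgalt2* alone passed. The rest lay between −0.36 for dd_6736 (*TNC*), a match to tenascin, and 0.32 for dd_3852 (*ADAMTSL3*), and the list median was −0.06.

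A few contigs matching proteins of the contractile apparatus or an adaptor abundant in heart fell by about 0.6 to 0.8 on the log2 scale. They are grouped here after their values had been seen. dd_10318 (*ldb3*), a match to a PDZ and LIM protein that in vertebrates holds actin filaments at the Z-disc, had 10.8, 11.1 and 11.9 CPM in *nr4A(RNAi)* tails and 17.5, 21.0 and 18.9 CPM in control tails. The change was −0.76 ± 0.11 (SE; edgeR adjusted p = 0.0117). dd_7974 (*tnni2*) matches troponin I, the subunit that holds back contraction until calcium binds the troponin complex. It had 40.0, 33.1 and 36.7 CPM in *nr4A(RNAi)* tails against 56.2, 52.4 and 57.1 CPM in control tails, a change of −0.59 ± 0.09 (SE; edgeR adjusted p = 0.0122). dd_5037 (*fhl2*), a match to a LIM-domain adaptor abundant in vertebrate heart, had 26.3, 26.0 and 29.2 CPM against 41.6, 40.6 and 40.9 CPM in control tails, with a change of −0.59 ± 0.08 (SE; edgeR adjusted p = 0.0101). Calls of these 3 were lost when single libraries, mostly controls, were left out, with adjusted p up to 0.0958, 0.106 and 0.0793 for *ldb3*, *tnni2* and *fhl2*.

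The bulk of the contractile contigs did not pass the threshold. Of 13 contigs listed as myosins, tropomyosins, titin and related proteins, none passed, and the list median was −0.06. The most negative were dd_1434 (*MhcA*), a myosin heavy chain, at −0.51 (edgeR adjusted p = 0.207), and dd_1772 (*ATP2A2*), the calcium pump of the sarcoplasmic reticulum, at −0.49 (edgeR adjusted p = 0.0690). The most positive was dd_3381 (*TTN*), titin, at 0.07. The summed level of the list was 11394, 11932 and 11914 CPM in *nr4A(RNAi)* tails and 13081, 13198 and 13361 CPM in control tails, with no overlap. Over all contigs tested, 5.8% were separated in this direction. The sum weighs each contig by its reads, and dd_432 (*MhcA*) had the most. It was counted 224944 times in *nr4A(RNAi)* tails and 294379 times in control tails, a change of −0.35 (edgeR adjusted p = 0.289). With DESeq2, 3 of the 13 passed, as did 3 without *nr4A(RNAi)* replicate 1. Transcription factors that specify planarian muscle subsets, *myoD* (−0.11), *nkx1-1* (−0.06) and *snail-1* (−0.07), did not pass either, and the signs of *myoD* and *nkx1-1* turned positive without *nr4A(RNAi)* replicate 1.

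**Figure D2:**
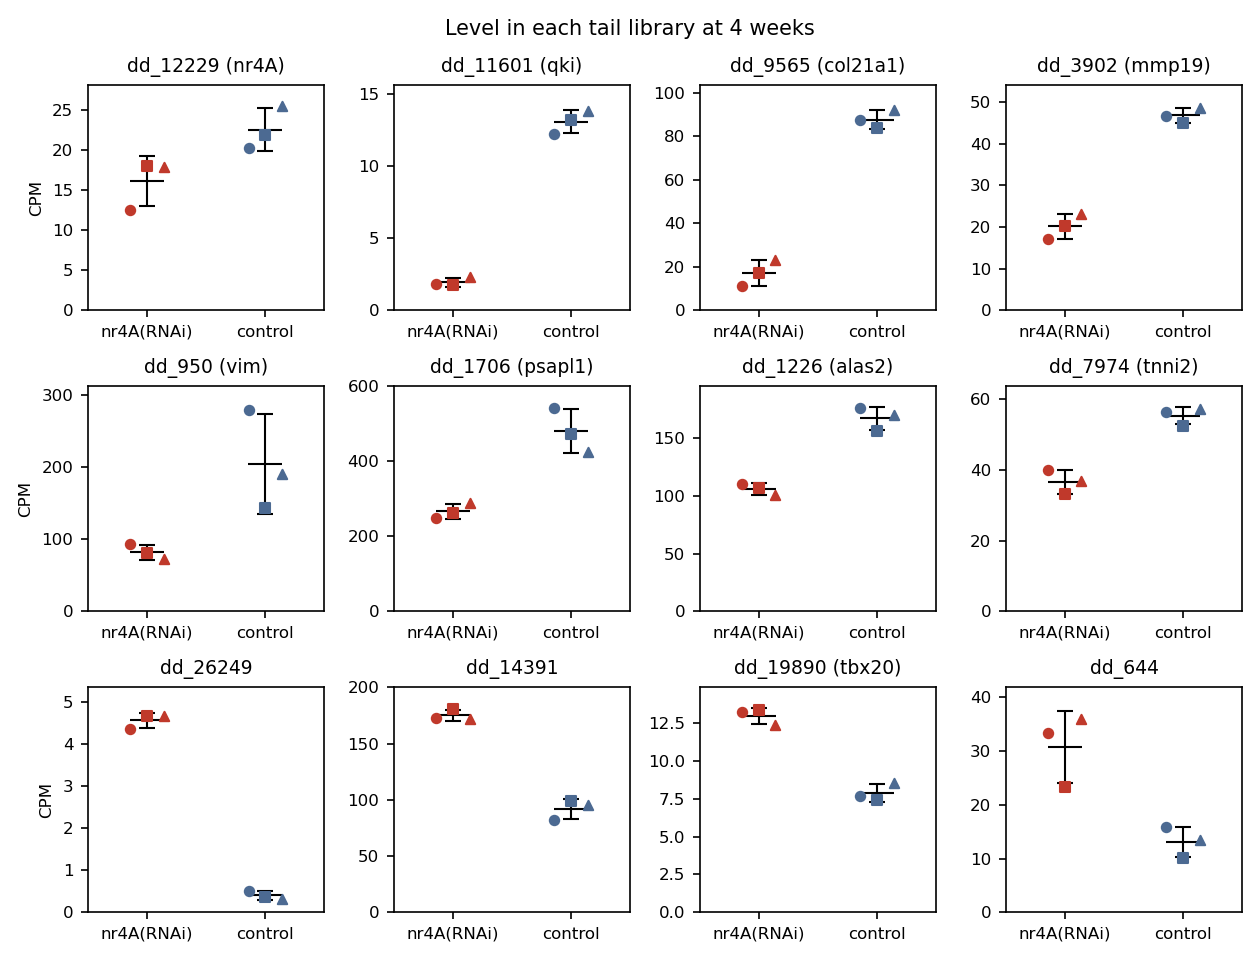
CPM in each of the 6 tail libraries at 4 weeks for 12 contigs, with *nr4A(RNAi)* on the left and control on the right of each panel, replicates 1 to 3 as circle, square and triangle, and bars for the mean ± SD (n = 3). All panels except *nr4A*, which did not pass the threshold, show contigs chosen from the 76 that passed, none of which had overlapping groups. The groups do not overlap in the *nr4A* panel either. *qki* stands at 1.74 to 2.30 CPM in *nr4A(RNAi)* tails against 12.2 to 13.8 CPM in control tails.

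Contigs matching enzymes of heme synthesis, grouped here after their values had been seen, fell by similar amounts. Heme synthesis starts with the joining of glycine and succinyl-CoA by aminolevulinate synthase and goes on through ALA dehydratase and hydroxymethylbilane synthase to the porphyrins, which are also part of planarian body pigment. dd_1226 (*alas2*), the match to the first enzyme, had 110, 106 and 100 CPM in *nr4A(RNAi)* tails, against 175, 156 and 169 CPM in control tails. Its change was −0.66 ± 0.08 (SE; edgeR adjusted p = 0.00354). dd_6364 (*alad*), the match to the second, had 29.3, 25.6 and 32.3 CPM against 61.8, 51.5 and 45.2 CPM in control tails, a change of −0.86 ± 0.12 (SE; edgeR adjusted p = 0.0106), which missed the threshold without control replicate 1 (adjusted p = 0.0624). The next enzyme matched 2 contigs, both of which fell: dd_11623 (*hmbs*) by 0.70 (edgeR adjusted p = 0.0210) and dd_3133 (*hmbs*) by 0.65 (edgeR adjusted p = 0.0113). Since both match 1 human gene, reads may be shared between them and their separate values are uncertain. Both calls were lost when single libraries were left out, with adjusted p up to 0.164 and 0.0959.

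A later enzyme of the same pathway, dd_3392, a match to uroporphyrinogen decarboxylase (*UROD*) that was picked after its values had been seen, differed little. It had 46.7, 40.0 and 45.5 CPM in *nr4A(RNAi)* tails and 47.5, 43.9 and 47.2 CPM in control tails, with overlapping groups, and its change was −0.07 ± 0.09 (SE; edgeR adjusted p = 0.998). dd_7884 (*kmo*) matches kynurenine 3-monooxygenase, an enzyme of tryptophan breakdown that in insects also leads to eye pigments. It had 24.8, 26.9 and 23.4 CPM in *nr4A(RNAi)* tails against 39.8, 37.0 and 37.4 CPM in control tails, a change of −0.60 ± 0.09 (SE; edgeR adjusted p = 0.0113), lost without *nr4A(RNAi)* replicate 3 or any 1 control library (adjusted p up to 0.0906).

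Further named contigs that fell belong to the cytoskeleton, to enzymes and to membrane proteins. dd_950 (*vim*), a match to the intermediate filament protein vimentin, had 93.0, 81.1 and 72.2 CPM in *nr4A(RNAi)* tails, against 280, 143 and 190 CPM in control tails, which varied more than the others. The change was −1.32 ± 0.19 (SE; edgeR adjusted p = 0.0116), and without *nr4A(RNAi)* replicate 3 or control replicate 3 it missed the threshold (adjusted p up to 0.0764). dd_508, listed with the alpha tubulin *TUBA3D* as its best match, had 272, 254 and 271 CPM in *nr4A(RNAi)* tails and 503, 410 and 448 CPM in control tails, a change of −0.77 ± 0.09 (SE; edgeR adjusted p = 0.00354). Its 6 deposited rows did not move alike. The first held 1327, 1025 and 1206 counts in *nr4A(RNAi)* tails against 2632, 2000 and 2455 in control tails, and the sixth 790, 641 and 880 against 839, 766 and 838, with overlapping groups. Alpha tubulins form a family of near-identical genes, so how its reads were split between copies is uncertain.

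Among the enzymes, dd_1706 (*psapl1*), a match to a prosaposin-like protein of lysosomal lipid breakdown, had 248, 263 and 289 CPM in *nr4A(RNAi)* tails, against 543, 474 and 425 CPM in control tails. The change was −0.85 ± 0.10 (SE; edgeR adjusted p = 0.00354). dd_7272 (*lactb*), a match to a mitochondrial protein of the beta-lactamase family, had 14.9 ± 2.06 CPM against 32.5 ± 4.98 CPM in control tails (mean ± SD, n = 3 each), a change of −1.13 ± 0.13 (SE; edgeR adjusted p = 0.00334). dd_11683 (*ca12*) matches a membrane-bound carbonic anhydrase, which interconverts carbon dioxide and bicarbonate. It had 8.39, 12.6 and 14.2 CPM in *nr4A(RNAi)* tails and 26.4, 24.01 and 24.2 CPM in control tails, with a change of −1.09 ± 0.16 (SE; edgeR adjusted p = 0.0116), lost without any 1 control library (adjusted p up to 0.115). dd_2736 (*hspb1*), a match to a small heat shock protein, fell by 0.58 (edgeR adjusted p = 0.00820) to 102, 88.2 and 99.0 CPM, against 147, 144 and 142 CPM in control tails. Its call was also lost without any 1 control library (adjusted p up to 0.0639).

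The membrane proteins that fell were matches to an adhesion protein and to channel subunits. dd_9677 (*pcdh11y*), a match to a protocadherin, had 6.45 ± 1.75 CPM in *nr4A(RNAi)* tails, against 13.8 ± 1.23 CPM in control tails (mean ± SD, n = 3 each), a change of −1.09 ± 0.17 (SE; edgeR adjusted p = 0.0210). dd_14040 (*scnn1a*), a match to a subunit of the epithelial sodium channel, had 2.18, 1.78 and 2.51 CPM in *nr4A(RNAi)* tails and 5.10, 3.90 and 4.93 CPM in control tails, with a change of −1.10 ± 0.21 (SE; edgeR adjusted p = 0.0470). dd_12240 (*dpp6*), a match to an accessory subunit of potassium channels, fell by 0.60 (edgeR adjusted p = 0.0485). These calls were close to the threshold, and each was lost when any of several single libraries was left out, with adjusted p up to 0.164 for *pcdh11y*, 0.331 for *scnn1a* and 0.340 for *dpp6*.

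The study lists 10 of these contigs as *nr4A*-regulated genes that it cloned, part of a larger set that it reports as changed in heads or tails. All 10 fell here, with a median of −1.15. Since that list was drawn up on these libraries among others, it is not independent evidence of a decrease. Among them dd_2972 has no name. It had 19.9, 24.2 and 21.0 CPM in *nr4A(RNAi)* tails and 51.6, 52.9 and 49.5 CPM in control tails, a change of −1.24 ± 0.09 (SE; edgeR adjusted p = 9.99e-05).

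Of the 58 contigs that fell, 21 carry a name and the rest do not, among them the 3 with the most negative change. dd_34500 was counted 1, 0 and 1 times in *nr4A(RNAi)* tails, against 37, 42 and 44 times in control tails. The ratio of the summed counts at equal depth was 0.0166 (95% interval 0.00199 to 0.0614, for counting error only), and the edgeR adjusted p was 0.000532. The contig was thus near the detection limit in *nr4A(RNAi)* tails and low in control tails. dd_71832 was counted 0, 0 and 5 times against 26, 22 and 22 times, and dd_29474 1, 2 and 3 times against 20, 19 and 16 times. With so few counts their fitted changes, −3.69 and −3.09, depend on the fit, and both calls were lost when single libraries were left out (adjusted p up to 0.330 and 0.166).

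dd_16103 and dd_23846 rested on more reads. dd_16103 was counted 21, 27 and 21 times in *nr4A(RNAi)* tails against 93, 106 and 101 times in control tails, a change of −2.08 ± 0.24 (SE; edgeR adjusted p = 0.00313). dd_23846 was counted 35, 28 and 21 times against 102, 101 and 120 times, a change of −1.90 ± 0.23 (SE; edgeR adjusted p = 0.00354). The other unnamed contigs among the 15 with the largest falls, dd_64328, dd_33678, dd_2803, dd_52973, dd_29260, dd_25657 and dd_8317, had changes between −2.53 and −1.57, and each lost its call when some single library was left out (adjusted p up to 0.348). At the other end of the range, dd_1693 fell by 0.38, to 78.3, 81.5 and 81.2 CPM in *nr4A(RNAi)* tails against 102, 104 and 106 CPM in control tails.

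One of the 18 contigs that rose stood far above the others. dd_26249 had 4.36, 4.68 and 4.68 CPM in *nr4A(RNAi)* tails, against 0.519, 0.367 and 0.324 CPM in control tails. It was counted 104, 97 and 110 times against 12, 8 and 8 times, and the log2 fold change was 3.49 ± 0.26 (SE; edgeR adjusted p = 9.99e-05). The contig carries no name. dd_14391, also unnamed, had 173, 181 and 172 CPM in *nr4A(RNAi)* tails and 82.3, 98.6 and 95.3 CPM in control tails, a change of 0.93 ± 0.08 (SE; edgeR adjusted p = 0.000438).

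Only 2 of the contigs that rose carry a name. dd_19890 (*tbx20*), a match to a T-box transcription factor that in vertebrates acts in heart muscle, had 13.2, 13.3 and 12.4 CPM in *nr4A(RNAi)* tails, against 7.69, 7.39 and 8.54 CPM in control tails. The change was 0.72 ± 0.12 (SE; edgeR adjusted p = 0.0255). dd_6222 (*egf-6*), named for the epidermal growth factor family, had 39.8, 34.1 and 33.0 CPM against 20.3, 25.2 and 25.3 CPM in control tails, a change of 0.59 ± 0.11 (SE; edgeR adjusted p = 0.0470). Both calls were lost when any 1 control library, or *nr4A(RNAi)* replicate 2 or 3, was left out (adjusted p up to 0.171 and 0.264), and that of *egf-6* also with RLE size factors or the filter on a mean of 100 counts.

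Unnamed contigs dd_566, dd_460 and dd_644 rose with a larger spread between libraries. dd_566 had 17.6, 15.2 and 28.7 CPM in *nr4A(RNAi)* tails and 8.43, 4.54 and 6.15 CPM in control tails, a change of 1.68 ± 0.25 (SE; edgeR adjusted p = 0.0122). dd_460 had 42.3, 25.0 and 48.0 CPM against 20.1, 11.3 and 14.4 CPM in control tails, a change of 1.33 ± 0.23 (SE; edgeR adjusted p = 0.0320). dd_644 had 33.2, 23.3 and 35.9 CPM against 15.8, 10.1 and 13.4 CPM in control tails, a change of 1.23 ± 0.18 (SE; edgeR adjusted p = 0.0113). In all 3 contigs replicate 2 was the lowest library of both groups. Each lost its call without some single library, with adjusted p up to 0.102, 0.223 and 0.0844. The remaining increases among the 10 largest, dd_5690, dd_25893, dd_17223, dd_1491 and dd_663, lay between 0.82 and 1.25, and each lost its call without some single library (adjusted p up to 0.297).

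The same contigs were followed in tails at weeks 2, 3 and 5 and in heads at week 4, each compared within its own 6 libraries, so that no library is shared with the tails at 4 weeks. They were chosen for passing in tails at 4 weeks, which favours larger changes there than in the other comparisons. At week 2, *nr4A(RNAi)* replicate 1 stood apart. It had 22207 contigs with a count, against 23785 to 24188 in the other tail libraries of that week. Its level of dd_1434 (*MhcA*) was 32.8 CPM, against 317 and 349 CPM in the other *nr4A(RNAi)* tails. With it included, no contig passed at week 2 in either direction, 0% of 18207 tested. The biological coefficient of variation was 23.6%, with 239 contigs at an unadjusted p below 0.05 and 6 past the threshold with DESeq2. Nevertheless 54 of the 57 contigs that fell at week 4 and were tested had a negative change at week 2, or 94.7%, beside 54.7% for all contigs negative at week 4, and their median was −0.41. At week 3, where 0.128% of contigs fell and 0.0167% rose, 23 of the 58 had fallen, which are all of the decreases called at that week, and all 56 tested were negative. These values include control replicate 1 of week 3, a library that stood apart. It had 23390 contigs with a count, against 23816 to 24061 in the other tail libraries of that week. Its level of dd_1434 (*MhcA*) was 176 CPM, against 359 and 360 CPM in the other control tails. At week 5, where the biological coefficient of variation was 6.66% beside 10.5% at week 4, and 5.63% of contigs fell and 4.25% rose, 54 of 57 passed as decreases. The exceptions were dd_29260, dd_25657 and dd_2169. Depth was uneven at week 5, with 42917781 counts in control replicate 3 and 13395084 in *nr4A(RNAi)* replicate 3. The other tail libraries of that week held 20537519 to 24373328 counts.

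The 57 had a median change of −0.94 at week 5 and −0.85 at week 4. The log2 fold changes of *qki* were −1.43, −2.55, −2.74 and −3.13 at weeks 2, 3, 4 and 5, and those of *col21a1* were −1.20, −1.67, −2.36 and −2.75. For *alas2* they were −0.33, −0.69, −0.66 and −0.94, with weeks 3 and 4 close together. The difference of the changes at 4 and 5 weeks was tested by an interaction term over 12 libraries. Of 19258 contigs, 5 passed, or 0.026%, and none of them was among the 58 that fell. The same test of week 4 against week 3 found 0 of 19060 contigs (0%), with 542 at an unadjusted p below 0.05 and 0 with DESeq2. It included control replicate 1 of week 3, which stood apart.

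**Figure D3:**
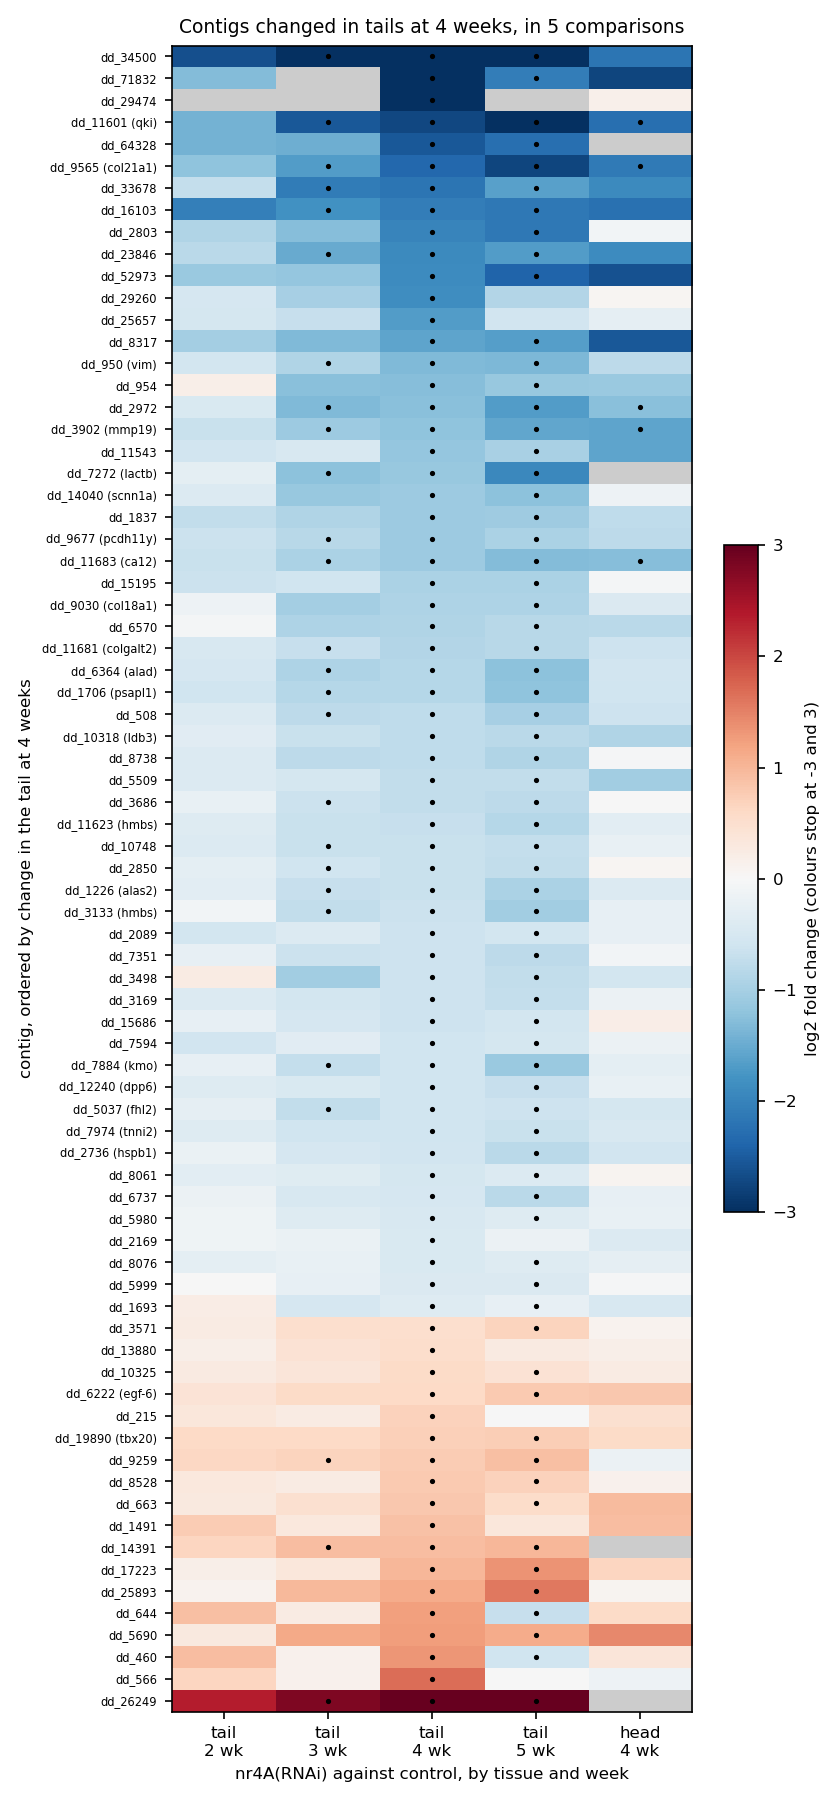
Log2 fold change, *nr4A(RNAi)* over control, of the 76 contigs past the threshold in tails at 4 weeks, ordered by that change, in tails at 2 to 5 weeks and in heads at 4 weeks. A dot marks an edgeR adjusted p below 0.05, grey a contig not tested, and colours stop at −3 and 3. Rows of contigs that fell are blue in most columns, while dd_644 and dd_460 turn from red at 4 weeks to blue at 5 weeks.

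The increases were less regular across the weeks than the decreases. All 18 had positive changes at weeks 2 and 3, and 3 passed at week 3: dd_26249, dd_14391 and dd_9259, which are all of the increases called at that week. At week 5, 12 passed as increases and 2 passed as decreases. These 2 were dd_644, with −0.70 at week 5 (edgeR adjusted p = 0.00279), and dd_460, with −0.61 (edgeR adjusted p = 0.0292), while dd_566 stood at −0.00 and dd_215 at −0.02. For dd_644 the change at 4 weeks minus that at 5 weeks was 1.91 ± 0.24 (SE; edgeR adjusted p = 0.0101), and it alone of the 18 passed this test. The other contigs that passed it, dd_28, dd_79, dd_33 and dd_58, had not passed at 4 weeks. At 5 weeks they were lower than in control tails, by 1.72, 1.82, 1.78 and 1.33. For each of them all control tails were higher at 5 weeks than at 4. dd_79 had 141, 84.9 and 87.2 CPM in control tails at 4 weeks and 332, 236 and 405 CPM at 5 weeks. In *nr4A(RNAi)* tails it had 117, 123 and 109 CPM, then 74.9, 119 and 84.6 CPM. The number past the test of 4 against 5 weeks lay between 0, without *nr4A(RNAi)* replicate 3 at 5 weeks, and 16, without control replicate 1 at 4 weeks.

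**Figure D4:**
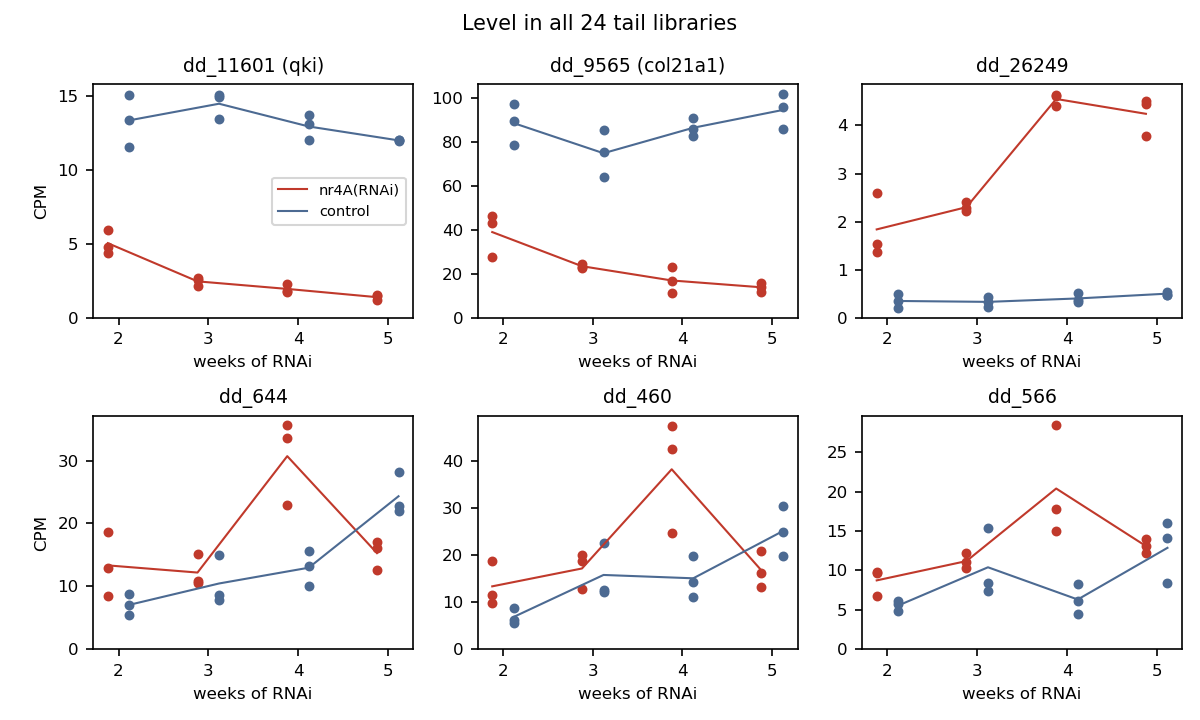
CPM in all 24 tail libraries, scaled together, against weeks of RNAi for 6 contigs, with *nr4A(RNAi)* in red and control in blue, points for libraries and lines through the means of 3. The groups stay apart at all 4 weeks for *qki*, *col21a1* and dd_26249, whereas for dd_644 and dd_460 the *nr4A(RNAi)* points lie above control at 4 weeks and their mean lies below it at 5 weeks.

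In heads at 4 weeks, 9 contigs fell and 0 rose among 18374, or 0.049% and 0%, with 1444 at an unadjusted p below 0.05 and 144 past the threshold with DESeq2. Of the 9, 5 were also among the 58 that fell in tails: *qki* (−2.25), *col21a1* (−2.12), *mmp19* (−1.57), *ca12* (−1.27) and dd_2972 (−1.26). Of the 56 contigs tested in both, 51 had a negative change in heads, 91.1% beside 59.2% for all contigs negative in tails, and for 10 the change was more negative in heads than in tails. Their median change was −0.81 in tails and −0.48 in heads, where the biological coefficient of variation was 14.9%. The contigs were chosen for passing in tails, which favours a larger value there, so the medians are not on equal terms. The difference itself, tail minus head, passed for 1 contig of 19548 (0.00512%), with 689 at an unadjusted p below 0.05. That contig was dd_3719, which is none of the 58, with a change of −0.25 in tails (edgeR adjusted p = 0.353) and −1.12 in heads (edgeR adjusted p = 0.00804). All these head values include *nr4A(RNAi)* replicate 2, a library that stood apart. It had 22475 contigs with a count, against 23919 to 24423 in the other head libraries at 4 weeks. Its level of dd_1434 (*MhcA*) was 61.6 CPM, against 276 and 303 CPM in the other *nr4A(RNAi)* heads.

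Position control genes are known for their expression domains along the body, and those listed here did not pass the threshold in tails at 4 weeks. *wnt11-1*, *nlg-8* and *ndl-2* were not paired with a contig and were not analysed here. The study reports the first of them as raised and the second as lowered in tails during the RNAi. The lists here therefore leave out the tail position control genes that it found changed by sequencing. None of 11 genes listed for the posterior pole passed: the list median was −0.02, and changes ran from −0.51 for *wif-like*, with 26 counts in all *nr4A(RNAi)* tails and 38 in all control tails, to 0.36 for *kallmann1*. *wnt11-2* stood at 0.14 and *wntP-1*, the Wnt gene that marks the pole, at 0.35. None of 13 anterior genes tested of 14 listed passed either, with a median of 0.00 and a range from −0.88 for *foxD*, a pole transcription factor with 29 and 55 counts in all, to 0.56 for *ndk*, an FGF receptor-like gene. Of 15 genes of Wnt, BMP, Hedgehog and other signalling, none passed, with a median of 0.07, and the extremes were dd_11629 (*evi/wls*), a Wnt secretion factor, at −0.29 and *noggin1*, a BMP inhibitor, at 0.39. A whole tail piece does not show where a gene is expressed within it, so a domain that shifts without a change in amount is not measured here. From in situ hybridization, the study reports that posterior pole expression had moved away from the tail tip by this stage of the RNAi. It also reports that the cluster of *wnt11-2* expression at the tail tip was reduced by then.

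**Figure D5:**
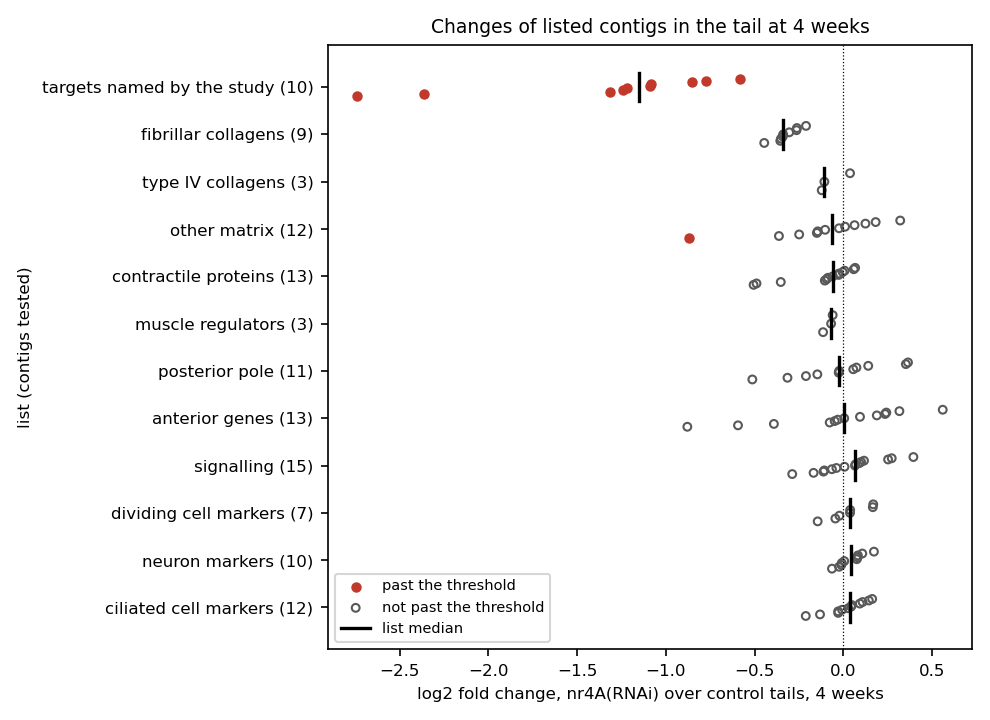
Log2 fold change in tails at 4 weeks, *nr4A(RNAi)* over control, of each contig tested in 12 lists, with filled points past the threshold, open points not past it, and a bar at each list's median. The targets named by the study have a median of −1.15, the fibrillar collagens −0.34, and the other lists medians between −0.11 and 0.07.

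Longer lists from the study's supplement had medians near 0, with *nr4A* itself left out and rows merged by contig. Of contigs enriched at the anterior pole of uninjured animals, 164 of 172 were tested and 4 fell, namely *colgalt2*, *pcdh11y*, *fhl2* and dd_508, beside 0.31% of all contigs tested, with a list median of −0.03. The number past the threshold was 1 without any one control library and 7 without *nr4A(RNAi)* replicate 1. Of those enriched in posterior pole cells, 182 of 197 were tested, none fell or rose, and the median was −0.00, with 3 past the threshold without *nr4A(RNAi)* replicate 1. Of those enriched in *nr4A*-positive muscle cells, 574 of 576 were tested, 3 fell (dd_508, dd_7351 and dd_1693) and none rose, with a median of 0.00, and the number past the threshold was 1 when any library other than *nr4A(RNAi)* replicate 1 was left out and 7 without that one.

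Markers of other cell types in the tail gave no called change. None of 7 markers of dividing cells, 10 of neurons and 12 tested of ciliated cells passed, and each of these lists had a median of 0.04. The summed level of the dividing cell markers was 199, 218 and 204 CPM in *nr4A(RNAi)* tails and 224, 200 and 189 CPM in control tails, and that of the neuron markers was 662, 675 and 677 CPM and 639, 658 and 689 CPM, so that both overlapped. The ciliated cell markers overlapped as well, at 1355 to 1496 CPM and 1279 to 1517 CPM. The epidermal lineage marker *agat-1* stood at 0.09. The intestinal transcription factor *GATA456-2* had 3.06, 3.04 and 2.47 CPM in *nr4A(RNAi)* tails, against 4.93, 4.22 and 3.64 CPM in control tails, a change of −0.58 that did not pass although the groups did not overlap. That separation was seen in 5.8% of all contigs tested. No list marker was at 0 in all libraries, and the part of cell composition in the contigs that fell was not tested.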

How the data were processed

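RNA was extracted with TRIzol from tail pieces of animals starved for at least 7 days, and libraries were made with a TruSeq v2 kit, which keeps no strand. Per the study's methods, reads were aligned by bowtie 1 on the contigs of dd_Smed_v4, and the authors deposited the raw count of reads on each contig, not normalized; the submitters' processing notes also name CASAVA 1.7.0 and Trimmomatic 0.32. The deposited DESeq tables hold group means, fold changes and p-values of the authors' own comparisons and were not used. In the tail table, 38633 rows were summed to 26401 contig numbers.

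Contigs were filtered with filterByExpr (minimum count 10, minimum total 15), scaled by TMM and tested with edgeR 4.0.16 (quasi-likelihood F test, R 4.3.3), with Benjamini-Hochberg adjustment over all contigs tested and a threshold of 0.05. A standard error is the fold change divided by the square root of F. Each tissue and week was fitted on its own 6 libraries, and differences between weeks or tissues were tested as interactions over 12. The common biological coefficient of variation was 10.5% in tails at 4 weeks. The scripts were tested on simulated data. Between replicates, chi-square per degree of freedom of the counts was 5.96 to 22.9, so no library was counted as a duplicate.

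The text names *nr4A* and the 10 contigs the study cloned as its targets, the 15 largest decreases and the 10 largest increases, every other called contig with a name in the study, and, within lists, the extremes and those past the threshold. *UROD*, *TNC*, *ATP2A2*, dd_432, *wnt11-2*, *wntP-1*, *ndl-4*, *snail-1*, dd_3719, dd_28, dd_79, dd_33, dd_58, dd_9259, dd_6570, dd_5509, dd_215, dd_1693, dd_2169 and dd_7351 lie outside this rule and were named after their values were seen. Members and lists were chosen with earlier results of these data known. Alternatives were RLE size factors, no filter, a mean of at least 100 counts, DESeq2 1.42.0, the replicate number as a block, all 24 tail libraries in one fit, rows as deposited, and each library left out in turn. Sequences are primers from the study's supplement, and no contig sequence was used here.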

Additional observations from a re-analysis of the deposited data

Results flagged for a closer look

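The response of the unnamed contig dd_644 differed between time points. It had 33.2, 22.9 and 35.7 CPM in *nr4A(RNAi)* tails and 15.5, 10.1 and 13.4 CPM in control tails at 4 weeks, and 12.6, 17.0 and 16.1 CPM against 22.6, 21.7 and 27.9 CPM in control tails at 5 weeks, with the 12 libraries scaled together. The log2 change at 4 weeks minus that at 5 weeks was 1.91 ± 0.24 (SE), with an adjusted p of 0.0101 in edgeR's interaction test over 12 libraries.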

How the results depend on the processing

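The 76 contigs past the threshold in tails at 4 weeks became 45 with a filter on a mean of 100 counts and 139 with DESeq2, and 18 (without control replicate 3) to 183 (without *nr4A(RNAi)* replicate 1) when single libraries were left out. The count was 70 with RLE size factors, 89 without a filter, 109 in one fit of 24 libraries and 74 by deposited rows. The 5 contigs that differed between 4 and 5 weeks became 12 without a filter, 2 with the mean filter, 32 with DESeq2 and 0 to 16 with single libraries left out. The 1 contig that differed between tail and head became 19 with DESeq2 and 1 to 6 with single libraries left out. Weeks 3 and 4 gave 0 under every setting. The cause of these shifts was not tested. The mean filter leaves fewer contigs to test, and leaving out a library leaves fewer samples. Same-numbered libraries were not paired by their labels, and their deviations correlated at 0.20, −0.17 and 0.24; with the replicate block the counts were 99, 14 for 4 against 5 weeks, 0 for tail against head and 0 for 4 against 3 weeks. Contigs that had not passed changed sign when single libraries were left out. *myoD* ranged from −0.26 to 0.023, positive without *nr4A(RNAi)* replicate 1, *nkx1-1* from −0.17 to 0.056, positive without that library or control replicate 2, dd_1579 (*COL4A6*) from −0.25 to 0.0049, positive without *nr4A(RNAi)* replicate 1, and dd_2337 (*COL4A6*) from −0.11 to 0.17, negative without *nr4A(RNAi)* replicate 3 or control replicate 2.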
